A study of Mus musculus with 7 samples.

Results

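KC_Four is a cluster of keratinocytes of the mouse epidermis in the authors' annotation, taken here as the cycling cells that the study recognised by Mki67. Its members are the cells that carry this cluster name in the deposited annotation, 375 of 5426 keratinocytes and of 18106 cells in the series. The keratinocytes were CD45neg epidermal cells of lethally irradiated male CD45.2 C57BL/6 hosts, sorted 3 weeks after transplantation of bone marrow (BMT) from female CD45.1 C57BL/6 donors. There were 2 keratinocyte libraries, 1 with the label BMT and 1 with T cells added to the label (BMT + T cells), each from pooled mice, and they held 225 and 150 KC_Four cells. The design text of the series gives all mice CD4 T cells together with CD8 T cells of the Matahari strain, whose receptor recognises a male antigen, whereas the sample labels give T cells to 1 keratinocyte library only. The libraries are therefore compared by label. With 1 library per label, the label contrast has no replicate, and the clusters were drawn from the same values that are compared, so no difference below has a test. KC_Five, taken as the cells that the study named after Cdc20, and Basal, the largest cluster, are used for comparison.

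The cell cycle passes through G1, S phase, in which DNA is copied, G2 and mitosis (M). Genes of DNA replication are transcribed from late G1 into S phase through E2F factors, and genes of mitosis are transcribed in G2 and M through the MuvB complex, B-Myb and FoxM1, which act at a short promoter element called the cell cycle homology region (CHR), often beside a CCAAT box. In the epidermis most divisions take place in the basal layer, whose cells express the keratins Krt5 and Krt14. Cells that leave it switch to Krt1 and Krt10.

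The promoters of 5 genes are shown because their transcripts mark KC_Four and because they carry these elements in different combinations. Each is the RefSeq promoter of the mouse build GRCm38.p6, 300 bases from 250 before the transcription start to 50 after it, read 5′ to 3′ on the strand of the gene. Capitals mark the CHR word (TTTGAA), the CCAAT box (CCAAT) and 4 E2F words (TTTCCCGC, TTTGGCGC, TTTCGCGC and TTTGCCGC), on either strand. Mki67 encodes a protein that coats mitotic chromosomes and lies at chr7:135716330-135716629 on the minus strand. Cdc20 encodes the activator of the anaphase-promoting complex and lies at chr4:118437294-118437593 on the minus strand. Top2a, topoisomerase II alpha, lies at chr11:99024140-99024439 on the minus strand. Cdk1, the kinase that drives entry into mitosis, lies at chr10:69352863-69353162 on the minus strand. Mcm5, a subunit of the replicative helicase, lies at chr8:75109259-75109558 on the plus strand.
Mki67: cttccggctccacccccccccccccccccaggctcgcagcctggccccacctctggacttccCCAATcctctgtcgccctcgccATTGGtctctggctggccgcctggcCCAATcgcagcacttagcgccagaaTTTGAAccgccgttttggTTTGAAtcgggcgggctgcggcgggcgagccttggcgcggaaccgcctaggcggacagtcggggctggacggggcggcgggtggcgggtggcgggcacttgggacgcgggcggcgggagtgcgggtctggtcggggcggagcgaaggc
Cdc20: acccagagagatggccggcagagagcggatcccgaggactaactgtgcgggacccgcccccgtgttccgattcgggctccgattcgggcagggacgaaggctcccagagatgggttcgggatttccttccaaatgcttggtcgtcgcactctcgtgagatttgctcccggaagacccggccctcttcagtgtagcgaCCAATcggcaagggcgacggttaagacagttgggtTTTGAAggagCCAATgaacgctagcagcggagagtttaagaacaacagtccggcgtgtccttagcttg
Top2a: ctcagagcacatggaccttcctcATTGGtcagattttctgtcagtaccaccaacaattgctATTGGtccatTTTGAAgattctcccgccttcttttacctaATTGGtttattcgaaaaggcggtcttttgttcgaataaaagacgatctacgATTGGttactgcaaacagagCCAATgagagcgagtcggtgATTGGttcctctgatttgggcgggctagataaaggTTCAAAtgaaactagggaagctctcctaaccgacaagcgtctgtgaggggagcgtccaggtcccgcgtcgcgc
Cdk1: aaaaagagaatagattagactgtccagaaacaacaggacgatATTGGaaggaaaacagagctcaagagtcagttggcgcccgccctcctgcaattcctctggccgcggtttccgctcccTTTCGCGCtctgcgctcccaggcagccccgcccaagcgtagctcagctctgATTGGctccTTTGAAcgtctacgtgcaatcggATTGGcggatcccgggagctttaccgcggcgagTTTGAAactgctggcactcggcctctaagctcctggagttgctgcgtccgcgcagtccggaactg
Mcm5: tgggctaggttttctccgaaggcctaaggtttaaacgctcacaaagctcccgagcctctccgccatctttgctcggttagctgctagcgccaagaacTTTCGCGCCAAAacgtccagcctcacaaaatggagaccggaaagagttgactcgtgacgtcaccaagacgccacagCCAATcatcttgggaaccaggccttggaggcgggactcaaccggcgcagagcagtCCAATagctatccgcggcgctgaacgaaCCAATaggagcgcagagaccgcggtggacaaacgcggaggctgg

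The 4 genes of G2 and M each held the CHR word, with 2 matches in Mki67, 1 in Cdc20, 2 in Top2a and 2 in Cdk1, and each held CCAAT boxes. Cdk1 also held 1 E2F word. Mcm5 held no CHR word and 2 E2F words, which overlap on opposite strands, besides 3 CCAAT boxes. Over the 52 promoters found for 47 of the 54 genes of the G2/M list (the genes with which Seurat scores G2 and M), 65.4% held the CHR word, 75% a CCAAT box and 5.77% an E2F word. Over the 35 promoters found for 31 of the 43 genes of the S phase list, the shares were 14.3%, 65.7% and 37.1%. Among all 32851 promoters of the table they were 17.9%, 37.4% and 2.26%, and 6.95% held both a CHR word and a CCAAT box. These are matches of letters, with no measurement of binding.

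KC_Four made up 7.93% of the BMT library (225 of 2836 cells, exact 95% Clopper-Pearson interval 6.97 to 8.99%) and 5.79% of the BMT + T cells library (150 of 2590, 4.92 to 6.76%). The share was lower in the BMT + T cells library and the intervals did not overlap, but they cover counting error only, and the share of a sorted suspension also depends on which cells were recovered. Without the Follicular cluster the shares were 8.8% and 6.44%. The Differentiated cluster also held a lower share in the BMT + T cells library (13.6% against 17.4%), as did KC_Five (4.48% against 5.5%). Basal held a higher share there (66.1% against 59.4%), and the shares of 1 library depend on each other. KC_Four cells held 3546320 and 2461604 unique molecular identifiers (UMIs), here and below in the order BMT, BMT + T cells. Their median depth was 15889 and 16878 UMIs and 3856 and 3966 genes per cell, against 10244 and 10988 UMIs in KC_Five and 8053 and 8224 UMIs in Basal. When every cell was thinned to 2500 UMIs, the medians were 1262 and 1245.5 genes in KC_Four and 1216 and 1212.5 in Basal. KC_Four cells thus carried more UMIs, and 9 and 13 of them exceeded 25000. Mitochondrial transcripts took a median of 1.73% and 1.48% of their UMIs. The keratinocyte libraries shared 2 barcodes, none of them between KC_Four cells, and 3 KC_Four cells had a barcode that was also present in a donor or host library.

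Both markers of the cluster were found in most of its cells. A UMI of Mki67 was detected in 94.2% (90.3 to 96.9%) and 93.3% (88.1 to 96.8%) of KC_Four cells, in 86.5% and 87.9% of KC_Five cells, and in 18.2% and 16.1% of Basal cells. In Differentiated cells, few of which were called S (41) or G2M (13) over both libraries, the shares were 4.67% and 3.4% at median depths of 10113 and 10403 UMIs, so KC_Four lay far above that level. At 2500 UMIs per cell Mki67 was still detected in 68.9% and 67.3% of KC_Four cells, against 0.811% and 1.42% of Differentiated cells.

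The level of Mki67, as UMIs of the gene per 10000 UMIs summed over the cells of a cluster, was 6.47 (exact Poisson interval 6.21 to 6.74) and 6.54 (6.22 to 6.87) in KC_Four, 4.59 and 5.61 in KC_Five, and 0.658 and 0.508 in Basal. KC_Four was 9.83-fold and 12.9-fold above Basal, but only 1.41-fold and 1.17-fold above KC_Five, so Mki67 separates both clusters from Basal more than from each other. Cdc20 gave another order. Its level was 4.33 (4.12 to 4.56) and 4.57 (4.3 to 4.84) in KC_Four, 8.75 and 8.63 in KC_Five, and 0.412 and 0.301 in Basal. KC_Four reached 0.496 (0.461 to 0.533) and 0.529 (0.487 to 0.576) of the KC_Five level while exceeding Basal 10.5-fold and 15.2-fold. A UMI of Cdc20 was found in 87.6% and 87.3% of KC_Four cells and in 96.8% and 95.7% of KC_Five cells. Cdc20 therefore marked KC_Four against Basal, but was higher in KC_Five.

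**Figure D1:**
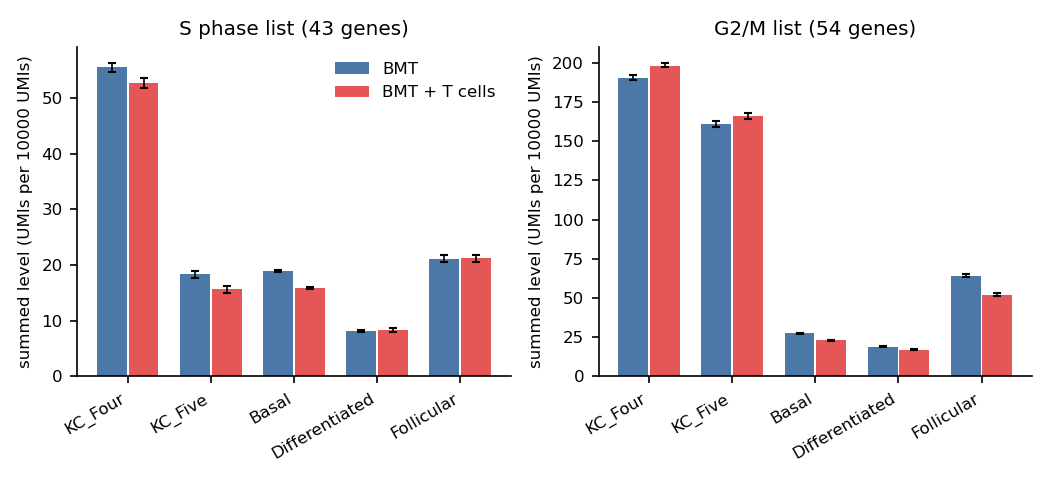
Summed level of the S phase list (43 genes) and of the G2/M list (54 genes) in UMIs per 10000 UMIs, by cluster and library (bars; error bars are exact Poisson intervals, counting error only). KC_Four stands highest for both lists, and KC_Five is close to it for the G2/M list but at the Basal level for the S phase list.

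Among the clusters KC_Four had the highest summed level of both the S phase list and the G2/M list. The summed level of the S phase list was 55.5 and 52.7 UMIs per 10000 in KC_Four, 18.3 and 15.6 in KC_Five, 18.9 and 15.9 in Basal, 8.12 and 8.31 in Differentiated and 21.1 and 21.2 in Follicular cells. The G2/M list summed to 190.0 and 198.0 in KC_Four, 161.0 and 166.0 in KC_Five, 27.6 and 22.9 in Basal, 19.0 and 17.0 in Differentiated and 64.1 and 51.9 in Follicular cells. KC_Five thus carried the G2/M list without a raised S phase list, and Follicular cells lay above Basal on both lists. The authors' phase calls, which score each cell on the same genes and so describe rather than support this pattern, put 165 and 116 KC_Four cells in G2M, 59 and 34 in S, and 1 and 0 in G1. KC_Four held 33.5% of the 839 keratinocytes called G2M and 7.53% of the 1235 called S. KC_Five held 31.6% and 0.567%, and Basal held 79.0% of the cells called S.

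For a count of genes, a gene was called when its level differed more than 2-fold in the same direction in both libraries, on log2(level + 0.1), among genes with a mean of at least 0.1 UMI per 10000. Against Basal, 320 of 7428 genes were called higher in KC_Four (4.31%) and 43 lower (0.579%), with a median log2 difference over all genes of -0.07. Against KC_Five, 153 of 7244 genes were called higher (2.11%) and 19 lower (0.262%), with a median of -0.05. Because the clusters were built from these genes, the counts describe the clusters and are no evidence for them.

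Many genes of DNA replication were higher in KC_Four than in either other cluster. Of the S phase list, 22 of the 39 genes that passed the filter were called higher than in Basal and none lower (median log2 difference 1.18), and 27 of 40 were called higher than in KC_Five (median 1.44). The licensing and helicase genes, which load the replicative helicase on origins, gave 6 of 14 higher than Basal (median 0.96) and 11 of 14 higher than KC_Five (median 1.55). Mcm5 stood at 1.47 and 1.45 UMIs per 10000 in KC_Four, 0.465 and 0.32 in KC_Five, and 0.58 and 0.43 in Basal. Gmnn, which encodes geminin, the inhibitor that blocks a second round of licensing, stood at 3.75 and 3.42 in KC_Four, 0.792 and 0.524 in KC_Five, and 0.736 and 0.53 in Basal. Both genes were higher in KC_Four than in either other cluster in both libraries. Mcm4 was not called against Basal, with log2 differences of 0.51 and 0.66.

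The polymerase and clamp genes were called higher than Basal in 10 of 12 cases and higher than KC_Five in 10 of 12. Pcna, the sliding clamp, had 4.57 and 3.99 UMIs per 10000 in KC_Four, 0.785 and 0.649 in KC_Five, and 1.49 and 1.2 in Basal, an order in which KC_Five lay below Basal. The enzymes that supply deoxynucleotides were called higher than Basal in 5 of 5 cases and higher than KC_Five in 4 of 5. Rrm2, the regulatory subunit of ribonucleotide reductase, had 3.48 and 3.18 UMIs per 10000 in KC_Four, 0.339 and 0.148 in KC_Five, and 0.354 and 0.272 in Basal. Its partner Rrm1 was not called against KC_Five, with log2 differences of 0.76 and 0.79.

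**Figure D2:**
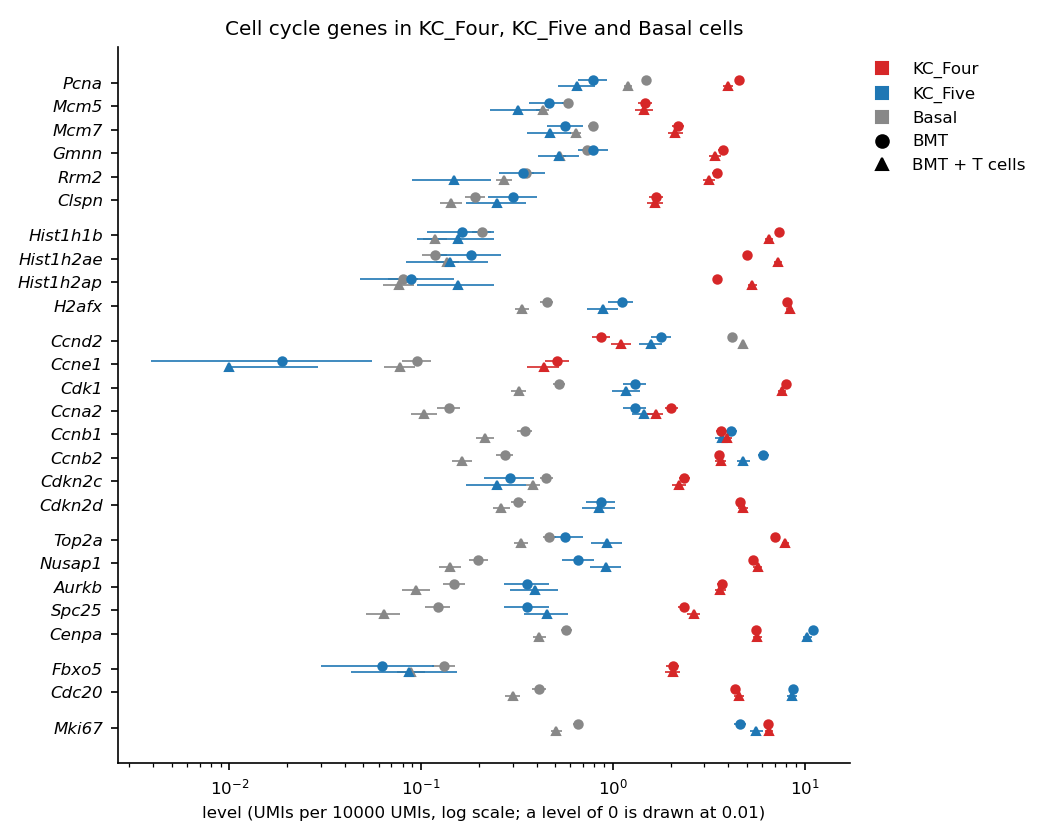
Levels of 26 cell cycle genes in KC_Four, KC_Five and Basal cells, in UMIs per 10000 UMIs on a log axis, grouped as replication genes, histones, cyclins with CDKs and inhibitors, chromosome genes, APC/C regulators and Mki67 (circles BMT, triangles BMT + T cells; bars are exact Poisson intervals, counting error only). KC_Four lies to the right of both other clusters for replication genes, histones, Top2a and Fbxo5, whereas Cdc20, Cenpa and Ccnb2 are highest in KC_Five.

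Hist1h1b, Hist1h2ae and Hist1h2ap were the 3 single genes with the largest differences against both clusters. The histone list also holds Hmgb2, Hmgn2, Stmn1 and Tuba1b, which are not histones. Its median log2 difference was 2.76 against Basal, below the 3.29 of the mitotic kinases and of the kinetochore genes, and 2.56 against KC_Five. Replication-dependent histone genes are transcribed in S phase, when new DNA is packed into nucleosomes, and most of their mRNAs have no poly(A) tail. Hist1h1b, a linker histone, had 7.4 (7.12 to 7.69) and 6.54 (6.22 to 6.87) UMIs per 10000 in KC_Four, 0.163 and 0.156 in KC_Five, and 0.207 and 0.118 in Basal. It was found in 86.7% and 83.3% of KC_Four cells, against 14.7% in KC_Five in both libraries and 10.3% and 7.18% in Basal. Hist1h1b thus split KC_Four from both other clusters to a similar extent, 45.3-fold (30.9 to 69.5) and 41.9-fold (27.0 to 68.7) above KC_Five. Hist1h2ae had 4.98 and 7.26 UMIs per 10000 in KC_Four, 0.182 and 0.141 in KC_Five, and 0.118 and 0.137 in Basal. Hist1h2ap gave 3.51 and 5.35, against 0.088 and 0.156, and 0.0808 and 0.077. Histone genes of a family are nearly identical, so how reads were divided among Hist1h2ae, Hist1h2ap and their copies is uncertain. H2afx, the variant phosphorylated at DNA breaks, had 8.07 and 8.38 UMIs per 10000 in KC_Four, 1.11 and 0.891 in KC_Five, and 0.451 and 0.336 in Basal. Of the 13 listed histones and related proliferation genes in the table, 12 were called higher than Basal and 9 higher than KC_Five, and H2afz, Hmgb2, Hmgn2 and Stmn1 were those not called against KC_Five.

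Cyclins and their kinases split by phase. Ccnd2, a D-type cyclin of G1, was lower in KC_Four, with 0.869 and 1.1 UMIs per 10000 against 1.78 and 1.58 in KC_Five and 4.17 and 4.75 in Basal. Ccnd1, the other D-type cyclin of keratinocytes, had 0.451 and 0.301 against 1.04 and 0.968 in Basal, and both were called lower than in Basal. Ccne1, the E-type cyclin of the entry into S phase, had 0.513 and 0.435 in KC_Four, 0.095 and 0.0776 in Basal, and 0.0188 and 0.0 in KC_Five, where it rested on very few UMIs. KC_Four therefore had less of the D-type cyclins and more of Ccne1 than Basal. Cdk1 had 8.01 and 7.61 in KC_Four, 1.3 and 1.17 in KC_Five, and 0.526 and 0.324 in Basal. The B-type cyclins, which activate Cdk1 for mitosis, had another order, since Ccnb1 was at 3.65 and 3.95 in KC_Four and 4.13 and 3.72 in KC_Five, and Ccnb2 at 3.58 and 3.65 in KC_Four and 6.09 and 4.8 in KC_Five. Of the list, 6 of 12 genes were called higher than Basal and 2 lower, and 5 of 12 higher than KC_Five.

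Of the CDK inhibitors, 2 were called higher in KC_Four in both contrasts. Cdkn2d, which encodes p19Ink4d, an inhibitor of the kinases of the D-type cyclins, had 4.61 and 4.76 UMIs per 10000 in KC_Four, 0.867 and 0.844 in KC_Five, and 0.321 and 0.262 in Basal. Cdkn2c, which encodes the related p18Ink4c, had 2.35 and 2.22, against 0.289 and 0.25, and 0.449 and 0.385. Both inhibitors were thus highest in KC_Four, where Ccnd2 was lowest. Between the other clusters, Cdkn2c and Ccnd2 were both lower in KC_Five than in Basal. Cdkn1a, the p53 target p21, was not called, with 1.78 and 1.84 in KC_Four and 1.46 and 1.42 in Basal, and of the 9 p53 targets that passed the filter against Basal none was called (median -0.26). Over all genes only 4.31% were called higher and 0.579% lower, so none among 9 says little about these targets.

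Genes that act on chromosomes in G2 and mitosis were higher than in Basal almost throughout, but only some exceeded KC_Five. Of the G2/M list, 52 of 53 genes were called higher than Basal (median 2.68) and 8 of 54 higher than KC_Five (median 0.26). The gene not called against Basal was Ctcf, with log2 differences of 0.51 and 0.68, and Gtse1 did not pass the filter there. The 7 condensin and topoisomerase genes, which compact and untangle chromosomes, were all called higher than Basal, and 4 of 7 higher than KC_Five. Top2a had 7.03 (6.76 to 7.31) and 7.94 (7.59 to 8.3) UMIs per 10000 in KC_Four, 0.565 and 0.93 in KC_Five, and 0.467 and 0.333 in Basal, and was found in 97.3% and 94%, 35.9% and 47.4%, and 12.7% and 10.3% of their cells. Top2a was thus highest in KC_Four, and KC_Five lay far below KC_Four but above Basal, more so in the BMT + T cells library.

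Kinetochore genes, whose products tie chromosomes to the spindle, were called higher than Basal in 9 of 9 cases and higher than KC_Five in 2 of 9. Spc25, a subunit of the Ndc80 complex, had 2.35 and 2.65 in KC_Four, 0.358 and 0.453 in KC_Five, and 0.123 and 0.0638 in Basal. Cenpa, the histone variant of the centromere, went the other way, with 5.59 and 5.67 in KC_Four and 11.1 and 10.3 in KC_Five. The mitotic kinases and passenger proteins were called higher than Basal in 7 of 7 cases and higher than KC_Five in 1 of 7, which was Aurkb, the kinase that corrects faulty attachments, at 3.69 and 3.64 against 0.358 and 0.391. Birc5, which encodes its partner survivin, was at 10.1 and 10.5 in KC_Four and 8.38 and 8.69 in KC_Five. Of 16 spindle and cytokinesis genes, 15 passed the filter and were called higher than Basal, and 3 of 16 were called higher than KC_Five, namely Kif11, Prc1 and Nusap1. Nusap1, a microtubule binding protein, had 5.41 and 5.69 in KC_Four, 0.66 and 0.922 in KC_Five, and 0.199 and 0.142 in Basal.

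The anaphase-promoting complex (APC/C) ends mitosis by marking cyclins for destruction, and its activator and inhibitor differed in opposite directions between KC_Four and KC_Five. Fbxo5, which encodes the inhibitor Emi1, had 2.05 (1.9 to 2.2) and 2.06 (1.88 to 2.25) UMIs per 10000 in KC_Four, 0.0628 and 0.086 in KC_Five, and 0.131 and 0.0888 in Basal. KC_Four was 32.6-fold (17.6 to 68.2) and 24.0-fold (13.3 to 48.3) above KC_Five in Fbxo5 whereas its Cdc20 level was 0.496 and 0.529 of that in KC_Five. Of the APC/C and spindle checkpoint genes, 8 of 9 were called higher than Basal and 2 of 9 higher than KC_Five, namely Fbxo5 and Ube2c, the E2 enzyme of the complex. Pttg1, which encodes securin, was not called in either contrast, with 1.14 and 0.902 in KC_Four, 1.46 and 1.28 in KC_Five, and 0.897 and 0.741 in Basal.

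Of the transcription factors of the cycle, 6 of 11 were called higher than Basal and 5 of 10 higher than KC_Five. E2f1, an activating E2F, had 0.623 and 0.569 in KC_Four, 0.0817 and 0.0313 in KC_Five, and 0.223 and 0.159 in Basal. Mybl2, which encodes B-Myb, had 0.197 and 0.215, against 0.0188 and 0.0313, and 0.0472 and 0.0171. Foxm1 was called against Basal only, with 0.434 and 0.378 in KC_Four, 0.308 and 0.375 in KC_Five, and 0.0404 and 0.0276 in Basal. E2f1 and Mybl2 thus separated KC_Four from both clusters, and Foxm1 did not separate it from KC_Five past 2-fold.

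Ranked over all genes by the smaller of the differences in the 2 libraries, the 10 genes most above Basal were Hist1h1b, Hist1h2ae, Hist1h2ap, Nusap1, Aurkb, H2afx, Pbk, Birc5, Esco2 and Mxd3, with ranking log2 differences from 4.61 to 3.71. Esco2, the acetyltransferase that establishes sister chromatid cohesion in S phase, had 2.16 and 2.25 UMIs per 10000 in KC_Four, 0.0942 and 0.125 in KC_Five, and 0.0674 and 0.0388 in Basal. The 10 most above KC_Five were Hist1h1b, Hist1h2ap, Hist1h2ae, Fbxo5, Esco2, Rrm2, Top2a, Aurkb, Hist1h1a and H2afx, with differences from 4.7 to 2.76. Histone genes took the first 3 places of both rankings, and genes of mitosis such as Nusap1, Aurkb and Birc5 stood among the others against Basal.

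The genes lowest against Basal were S100a8, Ccnd2, Tcp11l2, Kdm5b, Ahnak2, Hspb1, Mir205hg, Ccl27a, Krt16 and Fbxo32. S100a8, an alarmin of activated epidermis, had 0.0508 and 0.0284 in KC_Four and 0.569 and 1.27 in Basal. Hspb1, a small heat shock protein of keratinocytes, had 0.806 and 0.796 against 2.72 and 2.6. Ccl27a, a chemokine of the epidermis that attracts skin T cells, had 0.874 and 0.5 against 2.96 and 1.7. Between KC_Four and KC_Five, Hspb1 and Ccl27a were not called, and S100a8 did not pass the filter.

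Genes among the lowest against KC_Five were Scd2, Msmo1, Insig1, Gadd45b, Mir205hg, Cyp51, Sqle, Serpinb8 and Gm42418. Of these, Msmo1, Cyp51 and Sqle encode enzymes of cholesterol synthesis, Insig1 its sterol-sensing regulator and Scd2 a fatty acid desaturase. Scd2 had 0.243 and 0.24 in KC_Four, 1.02 and 0.985 in KC_Five, and 0.361 and 0.349 in Basal. Sqle had 0.257 and 0.134 in KC_Four, 0.804 and 0.672 in KC_Five, and 0.167 and 0.168 in Basal. For both genes KC_Five was therefore above KC_Four and Basal. Gm42418 overlaps a ribosomal RNA repeat, so its UMIs are uncertain. These sterol genes were grouped after their values were seen, from the list ranked by size.

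KC_Four cells expressed the keratins of the basal layer. Krt5 was found in all KC_Four cells, at 146.0 and 157.0 UMIs per 10000 against 179.0 and 176.0 in Basal and 39.8 and 50.4 in Differentiated cells. Krt14 was at 318.0 and 310.0 against 396.0 and 379.0 in Basal and 109.0 and 108.0 in Differentiated cells. Both keratins were thus closer to the Basal than to the Differentiated level in KC_Four. All 13 basal keratinocyte genes had a log2 difference below 0 against Basal (median -0.59, all genes -0.07), yet only Dst, which encodes a linker of keratins to the basement membrane, was called lower, at 0.307 and 0.435 against 0.913 and 1.05. Levels are shares of a cell's UMIs, so a gene can be lower here when other transcripts are more abundant. Trp63, the master regulator of the epidermal lineage, had 1.75 and 1.81 against 2.13 and 2.15.

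Krt10, the keratin of differentiated layers, had 6.23 and 2.91 UMIs per 10000 in KC_Four, 6.19 and 8.92 in Basal, and 154.0 and 143.0 in Differentiated cells. Krt79 of the upper follicle was found in 4.0% and 3.33% of KC_Four cells. None of the 7 suprabasal and none of the 7 follicle and sebaceous genes that passed the filter was called against Basal. With 4.31% of all genes called higher and 0.579% lower, these counts say little about either list. The stress keratins and alarmins gave 3 of 7 genes lower than Basal (median -1.85). By library their median was -0.19 in BMT and -2.32 in BMT + T cells, so most of the difference lay in the latter. The growth signal list gave 1 of 4 lower, which was Myc, at 0.288 and 0.244 in KC_Four, 0.697 and 0.563 in KC_Five, and 0.768 and 0.879 in Basal. The immediate early genes, which cell isolation also induces, gave 3 of 11 lower than Basal (median -0.83).

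Of 13 niche factors that the study relates to monocytes in the epidermis, 8 passed the filter and none was called against Basal. Over all genes 4.31% were called higher and 0.579% lower, so none among 8 is near the overall share. Tgfb1 was called higher than KC_Five, at 0.626 and 0.687 in KC_Four, 0.251 and 0.258 in KC_Five, and 0.347 and 0.357 in Basal. Il34, a survival factor of Langerhans cells, had 0.485 and 0.52 in KC_Four and 0.919 and 1.01 in Basal, and was not called.

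Markers of other cell types were near 0. No KC_Four cell held a UMI of Ptprc, which encodes CD45, and at 3 counts of the total, 0 of 225 and 0 of 150 cells allow shares of cells with a UMI of up to 1.33% and 2.0% (exact upper limits 1.63% and 2.43%). The 12 leukocyte markers summed to 100 and 72 UMIs, of which 95 and 71 were Trbc2, a T cell receptor constant region, and 7 and 10 of the markers were at 0, Ptprc, Cd3e, Cd3d and Cd8a among them in both libraries. Their summed level, 0.282 and 0.292 UMIs per 10000, compares with 0.242 and 0.317 in Basal. The melanocyte markers summed to 21 and 7 UMIs, the fibroblast markers to 31 and 0, of which 29 were Dcn, the endothelial markers to 5 and 2, and the Merkel cell markers to 1 and 0. The authors had removed likely doublets before deposit. Without the 9 and 13 KC_Four cells above 25000 UMIs, an alternative chosen after seeing the data, 369 genes were called against Basal and 188 against KC_Five, where all cells gave 363 and 172.

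**Figure D3:**
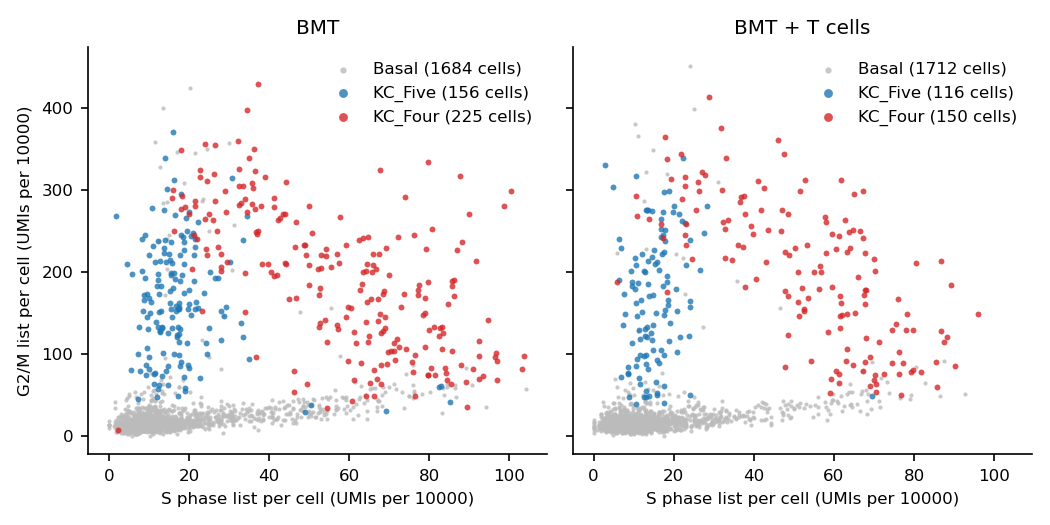
Each point is 1 cell, with the UMIs per 10000 of the S phase list on the horizontal and of the G2/M list on the vertical axis, for the BMT library (left) and the BMT + T cells library (right). KC_Four cells (red) run from high S phase and low G2/M values to the reverse, KC_Five cells (blue) form a column at low S phase values, and most Basal cells (grey) are low on both axes.

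KC_Four cells covered a wide range of both lists. Per cell, the S phase list ran from 2.39 to 104.0 with a median of 61.1 UMIs per 10000 in the BMT library, and from 5.95 to 95.9 with a median of 57.9 in the BMT + T cells library. The G2/M list ran from 7.18 to 429.0 (median 196.0) and from 49.8 to 413.0 (median 203.0). KC_Five had medians of 16.3 and 14.7 for the S phase list. Across KC_Four cells both lists were inversely related, with Spearman coefficients of -0.59 over 225 cells and -0.69 over 150 cells, and of -0.49 and -0.58 after thinning to 2500 UMIs. Cells of a library share its preparation, and values per 10000 share the depth of the cell, so these coefficients are descriptions. The 95th percentile of Basal cells for the S phase list, 52.5 and 41.7, was exceeded by 59.6% and 71.3% of KC_Four cells and by 2.56% and 0.862% of KC_Five cells. For the G2/M list, the Basal 95th percentile of 48.6 and 39.7 was exceeded by 97.3% and 100% of KC_Four cells and by 95.5% and 99.1% of KC_Five cells. A raised G2/M list was common to both clusters, and a raised S phase list was found in KC_Four.

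Pairs of genes were also compared, but Cdc20 and Cenpa belong to the G2/M list and Rrm2 to the S phase list. Their coefficients therefore restate this axis. Cdc20 and Cenpa had Spearman coefficients of 0.81 and 0.75 across KC_Four cells (0.41 and 0.52 thinned), and Rrm2 and Cdc20 coefficients of -0.59 and -0.62 (-0.27 and -0.35 thinned). Hist1h1b and Hist1h2ae gave 0.74 and 0.71 (0.52 and 0.41 thinned). Hist1h1b and Cdc20 gave weak values, -0.28 and -0.26.

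Genes outside the scoring lists were then compared between the KC_Four cells called S (59 and 34) and those called G2M (165 and 116), whose median depths were 14916 and 15777 against 16666 and 17156 UMIs. Ccnb1 had 0.986 and 0.995 UMIs per 10000 in cells called S and 4.48 and 4.71 in cells called G2M. Plk1, a kinase of mitotic entry and exit, had 0.577 and 0.378 against 2.13 and 2.18. Fzr1, which encodes Cdh1, the APC/C activator of late mitosis and G1, had 0.385 and 0.338 against 1.41 and 1.66. All 3 were higher in the cells called G2M. Of the genes outside the scoring lists with a mean level of at least 0.1, 7 of 7 spindle and cytokinesis genes, 4 of 4 condensin genes, 3 of 3 kinetochore genes, 2 of 2 mitotic kinases and passenger proteins, and 3 of 5 APC/C and checkpoint genes were higher there in both libraries. The exceptions were Fbxo5 and Pttg1, whose difference changed sign between the libraries. Past 2-fold in both libraries were 4 spindle and cytokinesis genes, 2 APC/C and checkpoint genes and 1 mitotic kinase, but no condensin or kinetochore gene. Of 9 p53 targets 6 were also higher there, none past 2-fold. A share over all genes was not computed for this contrast. The licensing and helicase genes went the other way, with 7 of 7 higher in the cells called S, 2 of them past 2-fold. Ccne1 had 1.2 and 1.21 in cells called S and 0.302 and 0.235 in cells called G2M. E2f1 had 1.37 and 1.41 against 0.395 and 0.352. Both genes of the entry into S phase were thus higher in the cells called S. Cdkn2d followed the genes of mitosis, with 1.94 and 1.93 in cells called S and 5.44 and 5.49 in cells called G2M.

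Of the histone list, 12 genes passed the filter here and took no part in the scoring. Of these, 11 were higher in the cells called G2M in both libraries, none of them past 2-fold in both. The 11 include Hmgn2, Stmn1 and Tuba1b, which are not histones, and a share over all genes was not computed. Hist1h1b had 6.06 and 4.85 UMIs per 10000 in cells called S and 7.83 and 6.97 in cells called G2M, and Hist1h2ae had 4.31 and 6.21 against 5.19 and 7.53. Fbxo5 had 1.66 and 2.25 against 2.17 and 2.01. H2afx differed more, with 4.9 and 4.62 in cells called S and 9.06 and 9.34 in cells called G2M. Hist1h1b, Hist1h2ae and Fbxo5, all far higher in KC_Four than in KC_Five, were thus found in both kinds of KC_Four cell. Krt5 and Krt14 also differed little, with 154.0 and 170.0 against 144.0 and 154.0 for Krt5, and 349.0 and 332.0 against 309.0 and 304.0 for Krt14. Of 7 follicle and sebaceous genes, 3 were higher in the cells called S and 3 in the cells called G2M in both libraries. Among these only Krt17, a keratin of the upper follicle, was past 2-fold. It had 1.34 and 3.26 in cells called S (111 and 164 UMIs) and 0.129 and 0.174 in cells called G2M (35 and 34 UMIs).

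**Figure D4:**
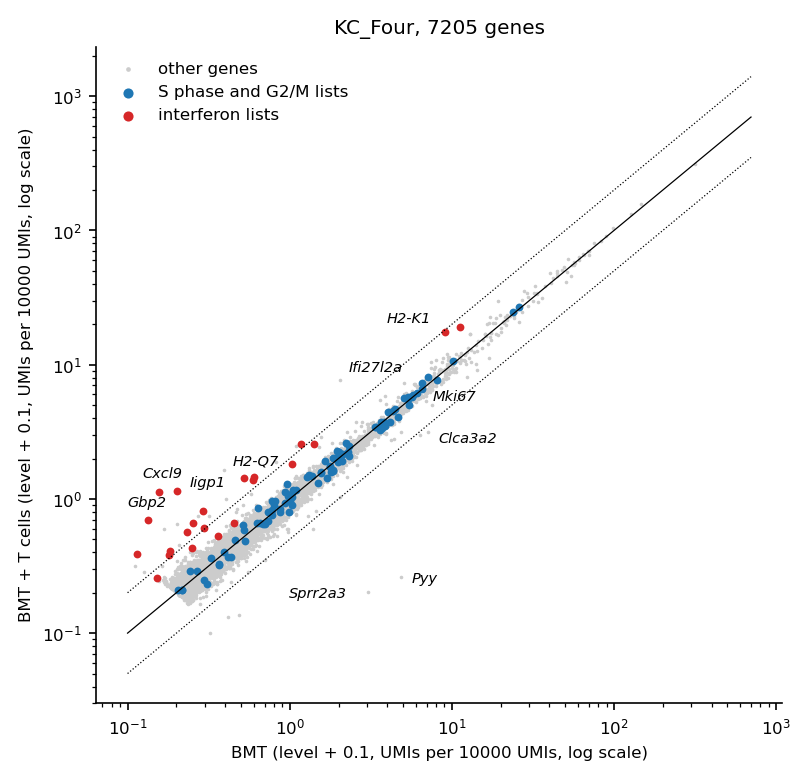
Levels of 7205 genes in KC_Four cells of the BMT library (horizontal) and of the BMT + T cells library (vertical), as level + 0.1 in UMIs per 10000 UMIs on log axes; the solid line marks equal levels and the dotted lines a 2-fold difference. Genes of the S phase and G2/M lists (blue) lie between the dotted lines, whereas genes of the interferon lists (red) lie above the line of equal levels.

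Between the labels, KC_Four cells differed in interferon-responsive genes and hardly in genes of the cycle. In the BMT + T cells library 27 of 7205 genes were called higher (0.375%) and 9 lower (0.125%), with a median log2 difference of -0.01 over all genes. With each cell thinned to 2500 UMIs the same rule called 84 higher and 110 lower, so neither the count nor its balance is firm. Neither the 41 S phase genes nor the 54 G2/M genes that passed the filter held a called gene, and their medians were -0.06 and 0.07. Their summed levels in the BMT + T cells library were 0.949 (0.928 to 0.97) and 1.04 (1.03 to 1.06) of those in the BMT library. Mki67 was at 6.47 and 6.54 UMIs per 10000, and Cdc20 at 4.33 and 4.57. The largest label differences among the histones were 0.54 for Hist1h2ae and 0.6 for Hist1h2ap on the log2 scale, both under 2-fold.

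Of the 32 genes of the interferon-gamma list, 18 passed the filter, all 18 were above 0 and 10 were called higher (median 1.14). In the same list 8 of 19 genes were called higher in KC_Five (median 0.84) and 10 of 19 in Basal (median 1.18). Over all genes, 23 of 7186 were called higher (0.32%) and 12 lower (0.167%) in KC_Five, and 36 of 7443 higher (0.484%) and 4 lower (0.0537%) in Basal. The list was therefore higher under the label BMT + T cells in all 3 clusters, and whether its difference varied between clusters was not tested. The list summed to 26.2 and 52.3 UMIs per 10000 in KC_Four, a ratio of 2.0 (1.95 to 2.05). The median KC_Four cell held 20.4 and 47.5 UMIs per 10000 of it. Across KC_Four cells its Spearman coefficients were -0.01 and -0.18 with the S phase list (0.0 and -0.23 thinned) and 0.2 and 0.16 with the G2/M list (0.08 and 0.14 thinned), all weak.

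Antigen presentation genes formed the most abundant share of this difference. H2-K1, a heavy chain of MHC class I, had 3201 and 4302 UMIs, or 9.03 and 17.5 UMIs per 10000, and its median over KC_Four cells was 7.33 and 15.4. H2-D1 had 11.2 and 19.1, and B2m, the light chain of class I, had 1.08 and 2.45 UMIs per 10000. The log2 differences were 0.95 for H2-K1, 0.77 for H2-D1 and 1.11 for B2m, so that of these 3 only B2m passed 2-fold. Tap1, which carries peptides to class I, had 0.939 and 1.73. Psmb8, a subunit of the immunoproteasome, had 0.493 and 1.28 and was called. H2-Q7, a class I gene of the Qa region, had 0.296 and 1.54 UMIs per 10000 and was found in 34 and 98 cells. Reads of class I genes are similar, so the split between H2-Q7 and its relatives is uncertain. Class II genes were low but higher in the BMT + T cells library, with 0.42 and 1.33 for Cd74, the invariant chain, and 0.192 and 0.715 for H2-Eb1, from 25 and 40 cells. Leukocytes also express class II genes, and the 12 leukocyte markers summed to 0.282 and 0.292 UMIs per 10000 in KC_Four, with 7 and 10 of them at 0. Their part in the class II difference was not tested.

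Some of the largest fold differences rested on few cells. Cxcl9, a chemokine that attracts T cells, had 20 UMIs in 2 cells of the BMT library and 252 UMIs in 6 cells of the BMT + T cells library, of which 189 were in 1 cell, and its log2 difference of 2.85 was 1.69 without the top cell of each library. Gbp2, an interferon-induced GTPase, had 12 UMIs in 8 cells and 148 UMIs in 28 cells, with 2.39 and, without the top cells, 1.8 on the log2 scale. Iigp1, another such GTPase, was spread more widely, with 36 UMIs in 11 cells and 258 UMIs in 49 cells, and gave 2.51 and 2.57. Iigp1 and Gbp2 thus stayed past 2-fold without their top cells, as did Cxcl9. Ifi27l2a, an interferon-stimulated gene, had 693 UMIs in 147 cells and 1865 UMIs in 138 cells, or 1.95 and 7.58 UMIs per 10000. Rtp4 was found in 17 and 47 cells, Phf11d in 25 and 52, Apol9a in 4 and 32, and Ifit1 in 3 and 20. All 4 type I interferon genes that passed the filter, Isg15, Ifit1, Oasl2 and Irf7, were called higher (median 1.18), against 0.375% of all genes. Of the genes of this list that passed in the other clusters, 2 of 4 were called higher in KC_Five (median 0.97). In Basal 3 of 4 were called higher (median 1.16).

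Of the immediate early genes, 2 of 9 were called higher, Fos (0.172 and 0.642) and Atf3 (0.0846 and 0.317). The list median was 0.28, and 0.375% of all genes were called higher. In Basal 2 of 11 genes of the list were called higher (median 0.52), and in KC_Five none of 10 (median 0.06). The part of the immediate early genes in the label difference was not tested. Krt16, a stress keratin, was called higher at 38 and 88 UMIs, but 77 of the 88 were in 1 cell, and without the top cells its log2 difference was -0.29.

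The genes called lower were Pyy, Sprr2a3, Gsdmc2, Gsdmc, Krt6a, Mmp3, Clca3a2, Krt10 and Fabp5. Pyy, which encodes the peptide hormone PYY, had 1697 UMIs in 50 of 225 cells of the BMT library, 435 of them in 1 cell, and 40 UMIs in 6 of 150 cells of the BMT + T cells library. Sprr2a3, a small proline-rich protein of the cornified envelope, had 1040 UMIs in 86 cells and 25 UMIs in 12 cells, but its family holds near copies and the gene is uncertain. Gsdmc, a gasdermin, had 79 UMIs in 39 cells and none in the BMT + T cells library, where the exact interval of the ratio reached up to 0.0689 of the BMT level. These 3 genes were found in many cells of 1 library and few of the other. They were also lower under BMT + T cells in KC_Five and Basal, with log2 differences of -2.58 and -3.5 for Pyy, -3.48 and -1.98 for Sprr2a3, and -1.06 in Basal for Gsdmc, which did not pass the filter in KC_Five (31 and 0 UMIs). Clca3a2 was lower in cells throughout KC_Four, with 7.02 and 3.04 UMIs per 10000, UMIs in 207 and 131 cells, and a median per cell of 4.16 and 2.08. It was also lower under BMT + T cells in KC_Five (5.51 and 4.09 UMIs per 10000) and in Basal (10.6 and 5.97).

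**Figure D5:**
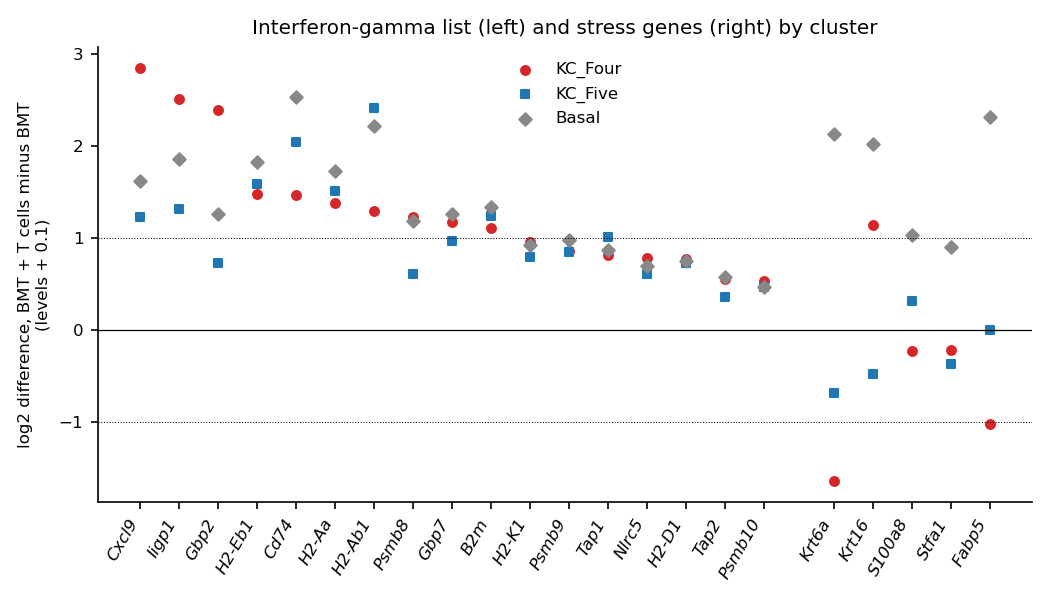
Log2 difference between BMT + T cells and BMT in KC_Four (circles), KC_Five (squares) and Basal (diamonds) for interferon-gamma genes that passed the filter in KC_Four (left) and 5 genes of stressed epidermis (right); dotted lines mark 2-fold. The interferon genes shown are above 0 in all 3 clusters, whereas Krt6a and Fabp5 are more than 2-fold higher under BMT + T cells in Basal and more than 2-fold lower in KC_Four.

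Stress keratins and alarmins, which mark activated epidermis, differed between KC_Four and Basal in the label contrast. In Basal 6 of 8 genes were called higher under BMT + T cells (median 2.01), whereas in KC_Four 1 of 4 was called higher and 1 lower (median -0.44). In KC_Five 1 of 4 was called higher and none lower (median -0.38). The filter was applied within each cluster, so these counts cover different genes. The KC_Four gene called higher was Krt16, whose UMIs came mostly from 1 cell. Summed over all 10 genes of the list, the ratio of BMT + T cells to BMT was 0.745 in KC_Four, 0.823 in KC_Five and 3.82 in Basal. Krt6a had 0.316 and 0.0325 UMIs per 10000 in KC_Four, 0.377 and 0.195 in KC_Five, and 0.365 and 1.93 in Basal. The KC_Four values came from 112 UMIs in 21 cells and 8 UMIs in 6 cells. S100a8 had 0.0508 and 0.0284 in KC_Four and 0.569 and 1.27 in Basal. Krt6a was thus lower under BMT + T cells in KC_Four and KC_Five and higher in Basal, with few KC_Four cells behind its value.

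The suprabasal list had a median label difference of -0.3 in KC_Four, 0.31 in KC_Five and 0.21 in Basal. Krt10 had 6.23 and 2.91 UMIs per 10000 in KC_Four, 7.19 and 12.8 in KC_Five, and 6.19 and 8.92 in Basal. Of the KC_Four value in the BMT library, 321 of 2210 UMIs came from 1 cell, and without the top cells the log2 difference was -0.99 in place of -1.07. Among the basal keratinocyte genes 12 of 13 were above 0 in KC_Four with none called (median 0.12), and Krt15, a keratin of basal and bulge cells, was at 19.1 and 29.9.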

How the data were processed

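Single-cell RNA was captured with a 10x 5' kit. The authors quantified it with kallisto and bustools, with the build GRCm38 in the submitters' processing notes, removed cells of low gene number or high mitochondrial content and likely doublets, and clustered the cells with Seurat. Doublets were not looked for again. The deposited expression values were the natural log (ln) of 1 plus UMIs per 10000, made by the authors. The deposited mitochondrial content was in percent, and the S and G2M scores behind the authors' phase calls were Seurat scores. From the deposited values, whole UMIs were recovered for 100% of 15311900 values within 0.001, over 26383 genes.

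UMIs were summed by cluster and library and given per 10000. Differences used log2(level + 0.1), which understates changes of low genes. Genes needed a mean level of 0.1 and were called past 2-fold, in both libraries for cluster contrasts. With 1 library per label and clusters made from the same values, no test was run. Intervals are exact at 95% (Poisson for levels, Clopper-Pearson for shares, conditional binomial for ratios) and cover counting error only. Thinning drew 2500 UMIs per cell. The named genes were the 10 largest called differences in each direction of each contrast, and members of the gene lists. A few of these genes are not reported here. Members and lists were chosen with earlier results of these data known. The steps were tested on simulated data. Computations ran in Python 3.11.15 with pandas 2.3.3 and NumPy 2.4.6, intervals came from SciPy 1.17.1, and plots from matplotlib 3.10.9.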

Additional observations from a re-analysis of the deposited data

Results flagged for a closer look

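In the contrast of BMT + T cells with BMT, 2 genes were past 2-fold in opposite directions in KC_Four and Basal. Krt6a, a keratin of activated epidermis, had a log2 difference of -1.65 in KC_Four (112 and 8 UMIs, levels 0.316 and 0.0325 UMIs per 10000) and of 2.13 in Basal (542 and 2935 UMIs, levels 0.365 and 1.93). Fabp5, a fatty acid binding protein of keratinocytes, had -1.03 in KC_Four (216 and 61 UMIs) and 2.31 in Basal (568 and 3475 UMIs). Without the cell with most Fabp5 UMIs in each library, the KC_Four value was -0.81. With 1 library per label, the difference between the clusters was not tested for either gene.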

How the results depend on the processing

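No paired analysis was possible because the label contrast had 1 keratinocyte library per label, and the cluster contrasts, seen in both libraries, come from no test since the clusters were made from the same values. Counts of called genes depended on the pseudocount and on the filter. The label contrast in KC_Four called 36 genes, and 55 with a pseudocount of 0.01, 3 with 1, 16 with a filter of 0.5 UMI per 10000 and 194 after thinning (84 higher and 110 lower in place of 27 and 9, with 30 shared). In KC_Five it called 35, and 134, 5, 15 and 340 under the same settings, and in Basal 40, and 7 with a pseudocount of 1 and 20 with the filter of 0.5. KC_Four against Basal called 363, and 88 with a pseudocount of 1 and 208 with the filter of 0.5. KC_Four against KC_Five called 172, and 295 with 0.01, 32 with 1 and 99 with the filter of 0.5.

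List medians kept their sign under each setting run. For pseudocounts of 0.01 and 1, the interferon-gamma median in KC_Four (1.14) was 1.41 and 0.55, the S phase median against Basal (1.18) 1.59 and 0.55 and against KC_Five (1.44) 1.96 and 0.54, and the G2/M median against Basal (2.68) 3.47 and 1.29. With a pseudocount of 1, the G2/M median was 0.16 against KC_Five (0.26) and 0.05 between labels (0.07). The S phase label median (-0.06) was -0.1 with 0.01 and -0.11 as a mean over cells. Without a filter the first 3 medians were 0.79, 1.12 and 1.37. As means over cells, the same 3 were 0.98, 1.31 and 1.53, and the G2/M medians 2.87 against Basal and 0.21 against KC_Five. After thinning they were 1.07, 1.42, 1.64, 2.82 and 0.2. In G2M-called cells, an alternative chosen after seeing the data, the interferon-gamma median was 1.04.

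Thinned to 2500 UMIs, Mki67 was detected in 68.9% and 67.3% of KC_Four cells and Cdc20 in 56.0% and 61.3%, and the median genes per cell were 1262 and 1245.5. Of 59 differences of named genes, 33 were under 2-fold with a pseudocount of 1, 1 after thinning and 2 as means over cells, and none changed sign there. Without the cell with most UMIs of a gene, also chosen after seeing the data, Krt10 and Fabp5 were under 2-fold. Depth limits genes found in few cells, such as Cxcl9.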
